A study of Mus musculus with 59 samples.

Results

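The genes described here are Cd3e and 9 others that were followed in mouse epiblasts at E6.25 (E, embryonic day). These were its chromosome 9 neighbours Cd3d, Cd3g, Mpzl2, Mpzl3 and Ube4a, and Inpp5d, Rasgrp2, Tnfrsf1a and Stat5a, which lie on other chromosomes and are best known from blood and immune cells. They were picked by symbol and make up 10 of the 22134 genes with a transcript listed in any epiblast. Cd3e, Inpp5d and Tnfrsf1a were picked because the study listed them as changed in Ehmt2 knockout epiblasts. The study also measured Cd3e by quantitative PCR in single E6.25 epiblast cells of both genotypes, and those values were not used here. Why Rasgrp2 and Stat5a were picked is not given in the sources used here. The level of these 5 genes in that cross is therefore described without a p-value, and nothing is read from whether they met the call rule there. The neighbours were picked by position and were tested, and every member that passed the filter on low counts was tested in the other cross.

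The epiblast is the pluripotent tissue of the early postimplantation embryo that gives rise to the body. Ehmt2 encodes G9a, an enzyme that places the repressive mark H3K9me2, and Ezh2 encodes the enzyme of Polycomb repressive complex 2 that places H3K27me3. RNA was sequenced from single epiblasts of mixed genetic background dissected at E6.25 from crosses of heterozygous parents. The Ehmt2 cross gave 4 controls, labelled G9a+/+, and 4 knockouts, labelled G9a-/-, from 4 litters. The Ezh2 cross gave 3 controls, labelled Ezh+/+, and 3 knockouts, labelled Ezh-/-, from 3 litters. The study describes its Ehmt2 controls as wild type or heterozygous, so the label +/+ may cover both. The deletions were inherited from the parents and so were not restricted to the epiblast. Heterozygous Ehmt2 mice had also been crossed with a reporter line that carries ΔPE-Pou5f1-EGFP (GGOF), and whether the sequenced epiblasts carried it is not stated. No agent is given for any group.

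In lymphocytes CD3 epsilon, delta and gamma, encoded by Cd3e, Cd3d and Cd3g, pair within the membrane and carry the signal of the T cell receptor into the cell. The T cell receptor reaches the surface only when all of its chains are made, so the CD3 genes are normally read as a set that marks T cells. No T cells exist in the embryo at this stage. Among the other members, MPZL2 and MPZL3 are adhesion proteins of the immunoglobulin superfamily that occur in epithelia, and UBE4A is a widely made enzyme that extends ubiquitin chains. INPP5D (SHIP1) is a lipid phosphatase that damps PI3 kinase signalling in blood cells, RASGRP2 activates the small GTPase Rap1, TNFRSF1A is the receptor for tumour necrosis factor that carries a death domain, and STAT5A is a transcription factor switched on by cytokine receptors.

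The 3 CD3 genes lie side by side on mouse chromosome 9 (build GRCm38). Cd3g (transcript ENSMUST00000002101, chr9:44969572-44980431, minus strand, 7 exons) and Cd3d (ENSMUST00000034602, chr9:44981786-44987339, plus strand, 5 exons) are transcribed away from each other. Cd3e (ENSMUST00000102832, chr9:44998740-45009613, minus strand, 8 exons) starts 27.8 kb from Cd3d and 29.2 kb from Cd3g. The 250 bases before each RefSeq start are shown because these genes are close neighbours that did not share a level in the knockouts. They were taken from RefSeq for GRCm38.p6 and are written 5′ to 3′ on the strand of the gene, with every CG dinucleotide in capitals.
Cd3e, chr9:45009612-45009861, minus strand: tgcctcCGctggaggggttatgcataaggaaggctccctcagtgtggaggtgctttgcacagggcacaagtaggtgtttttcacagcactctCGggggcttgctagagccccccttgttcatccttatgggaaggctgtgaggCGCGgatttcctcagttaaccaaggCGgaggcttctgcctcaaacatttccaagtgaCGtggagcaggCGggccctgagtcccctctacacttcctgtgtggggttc
Cd3d, chr9:44981536-44981785, plus strand: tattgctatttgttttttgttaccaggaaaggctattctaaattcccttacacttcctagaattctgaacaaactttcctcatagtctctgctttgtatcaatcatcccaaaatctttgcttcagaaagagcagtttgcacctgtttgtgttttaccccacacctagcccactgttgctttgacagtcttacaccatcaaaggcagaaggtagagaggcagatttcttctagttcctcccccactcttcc
Cd3g, chr9:44980432-44980681, minus strand: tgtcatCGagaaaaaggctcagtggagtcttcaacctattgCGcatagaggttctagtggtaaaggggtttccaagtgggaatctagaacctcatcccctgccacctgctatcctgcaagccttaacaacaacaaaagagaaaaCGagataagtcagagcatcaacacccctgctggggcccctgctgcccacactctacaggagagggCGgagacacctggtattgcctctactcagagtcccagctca

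The stretch before Cd3e held 7 CG dinucleotides, that before Cd3g held 4 and that before Cd3d held 0. The median over 32851 promoters of the same length was 6, and 7.87% of them had none. Base composition followed the same order, with 57.2% G and C before Cd3e, 51.6% before Cd3g and 41.2% before Cd3d. A promoter entry was also found for Ube4a (16 CG), Inpp5d (5), Tnfrsf1a (9), Rasgrp2 (31 and 21 at its 2 RefSeq starts) and Stat5a (5 and 21 at its 2 RefSeq starts), and none for Mpzl2 and Mpzl3. Some RefSeq starts differ from the start of the counted transcript. In chromosome coordinates the offset was −687 and 1143 bases for Rasgrp2 and 305 and 1133 for Stat5a. It was −50 for Inpp5d, 22 for Ube4a and −2 for Cd3e. CG reads the same on both strands. These counts describe sequence, and their relation to the levels was not tested.

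The 14 libraries held between 30161171 and 68464895 counts over all transcripts. Levels are given as CPM, the counts of a transcript scaled to library size, on 1 scale over all 14 epiblasts (TMM, trimmed mean of M values). In this sequencing of whole epiblasts, fewer cells that express a gene and less RNA per cell cannot be told apart. Ehmt2 itself fell in its knockouts (log2 fold change −1.63, SE 0.21, edgeR adjusted p = 0.00454) and Ezh2 fell in its own (−2.52, SE 0.27, adjusted p = 0.016). Replicate 4 of the Ehmt2 cross stood apart from replicates 1 to 3 and was fitted as a separate comparison set. Between 2 libraries of 1 genotype, the chi-square over its degrees of freedom was 156 to 206 with replicate 4 and 17.7 to 33.2 without it. A transcript was called when its adjusted p was under 0.05 and its log2 fold change was beyond 1.4. Each library is 1 epiblast, so the p-values measure the spread between single embryos.

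Cd3e was nearly silent in the 4 Ehmt2 controls and present in each of the 4 Ehmt2 knockouts. It stood at 0.0501, 0.0215, 0.267 and 0.0188 CPM in controls 1 to 4, from 2, 1, 10 and 1 counts. In knockouts 1 to 4 it stood at 6.44, 12.1, 6.79 and 5.85 CPM, from 225, 419, 260 and 350 counts. Every knockout lay far above every control, and the groups did not overlap. The fitted log2 fold change was 6.55 (SE 0.61), and the ratio of the summed counts, corrected for library size, was 94.6 with an exact 95% interval of 56.2 to 174 that covers counting error only. Knockout 2 was the highest, and the other 3 knockouts lay within 5.85 to 6.79 CPM. Without control 3, which held 10 of the 14 control counts, the log2 fold change was 7.88. Gene models Gm48719 on the opposite strand and Gm48720 on the same strand overlap Cd3e, and neither had a listed transcript. Ezh2 epiblasts had Cd3e at 0.168, 0 and 0.142 CPM in controls and at 0.560, 0.215 and 0 CPM in knockouts, from 0 to 18 counts. Those groups overlapped, with 2 of 3 knockouts above every control and knockout 3 at 0, which allows a level of up to 0.0787 CPM. Counts were too low there for Cd3e to pass the filter.

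Cd3d, whose product is the partner of CD3 epsilon in the receptor, did not follow it. It was detected in all 14 epiblasts, at 0.226, 0.451, 0.321 and 0.375 CPM in Ehmt2 controls 1 to 4 and at 0.200, 0.578, 0.261 and 0.334 CPM in knockouts 1 to 4. These values rest on 7 to 21 counts a library and the groups overlapped fully. The fitted log2 fold change was 0.00 (SE 0.62, adjusted p = 0.9995, edgeR quasi-likelihood test), with a 95% interval of −1.22 to 1.22. Cd3d was at 0.588, 0.742 and 0.397 CPM in Ezh2 controls and at 0.622, 0.804 and 0.709 CPM in Ezh2 knockouts (log2 fold change 0.31, SE 0.58, adjusted p = 0.952).

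Cd3g, the third CD3 gene, was at or near 0 in every epiblast. It had 1, 2, 0 and 2 counts in Ehmt2 controls 1 to 4 and 5, 0, 8 and 10 counts in the knockouts. Ezh2 epiblasts had 2, 5 and 2 counts in controls and 1, 0 and 1 in knockouts. It passed the filter in neither cross. Per kilobase of transcript, Cd3e in the Ehmt2 knockouts was at 5.33 ± 1.99 CPM per kb (SD, n = 4), Cd3d at 0.212 ± 0.103 and Cd3g at 0.127 ± 0.0886. In each of the 4 Ehmt2 knockouts Cd3e was above both other CD3 genes on this scale.

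**Figure D1:**
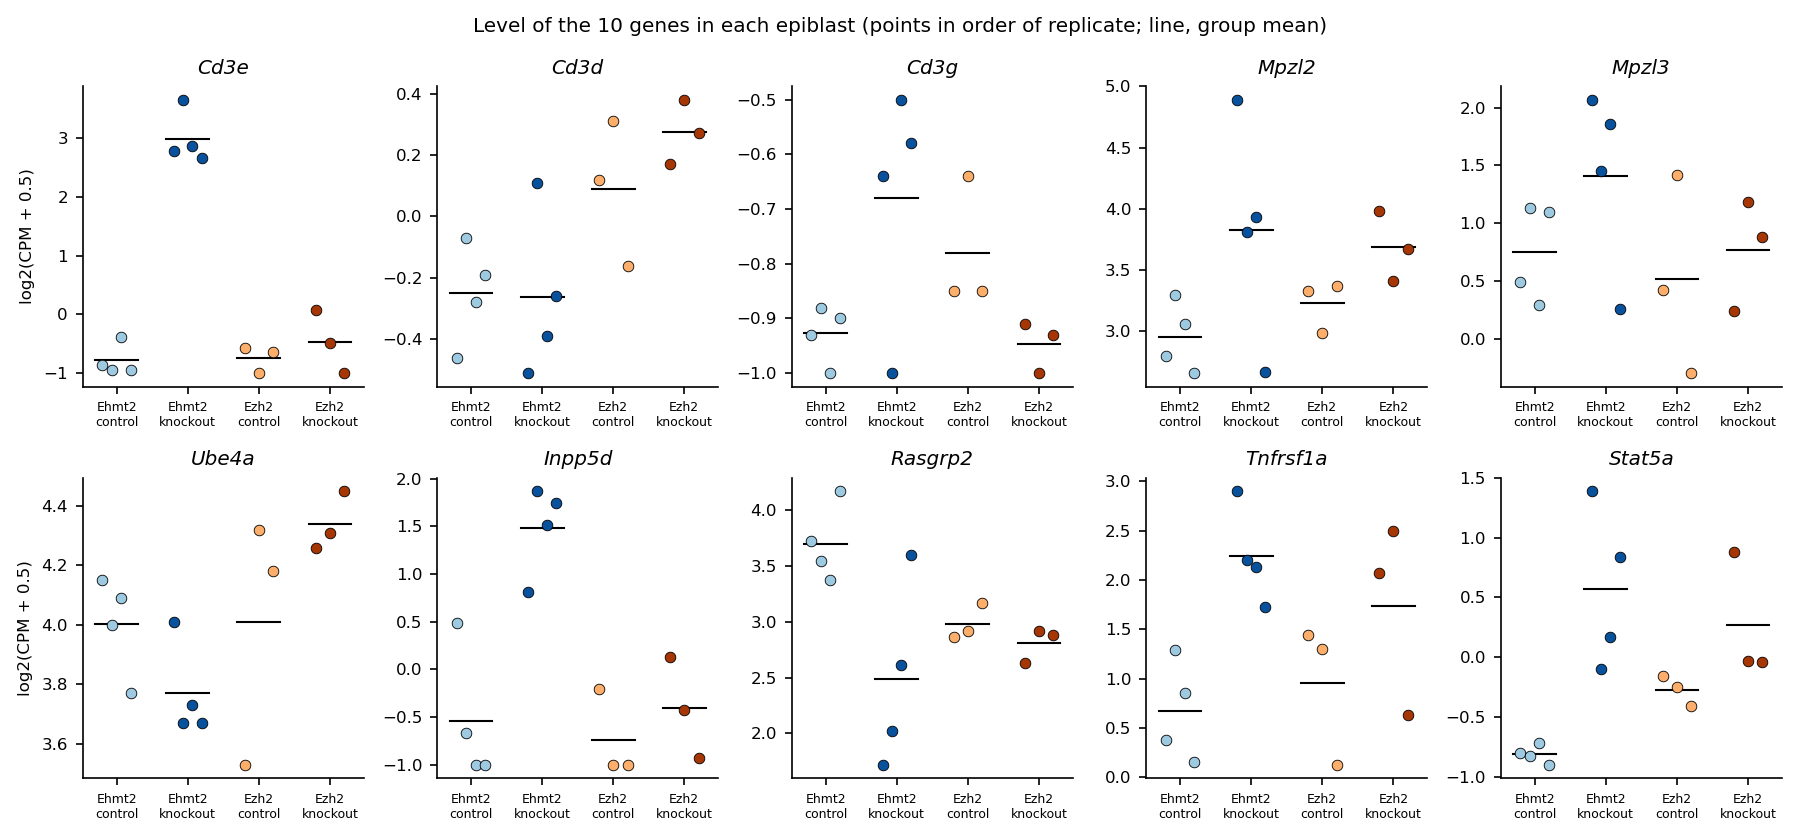
Level of each of the 10 genes, as log2(CPM + 0.5), in every epiblast of the 4 groups, with 1 point per epiblast and a line at the group mean. Each panel has its own vertical axis. Cd3e separates the 4 Ehmt2 knockouts, at 5.85 to 12.1 CPM, from all other epiblasts, at 0.560 CPM or lower.

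Mpzl2 and Mpzl3 lie on the other side of Cd3e, starting 30.2 kb and 45.6 kb from its start. Mpzl2 was well detected, at 6.46, 9.36, 7.86 and 5.83 CPM in Ehmt2 controls 1 to 4 and at 29.2, 13.6, 14.8 and 5.88 CPM in knockouts 1 to 4. Knockouts 1 to 3 were above every control, whereas knockout 4 was at the level of control 4. The log2 fold change was 0.97 (SE 0.30), which did not pass the test after adjustment (adjusted p = 0.215, edgeR). With DESeq2 the adjusted p was 0.0377 at 0.98, under the fold needed for a call. Without knockout 1 the log2 fold change was 0.60, and without control 4 or knockout 4 it was 1.27. For Ezh2, Mpzl2 was at 9.58, 7.45 and 9.84 CPM in controls and at 15.3, 10.1 and 12.3 CPM in knockouts (log2 fold change 0.49, SE 0.23, adjusted p = 0.718). All 3 of those knockouts were above every control, although the nearest values were 10.1 and 9.84 CPM.

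Mpzl3, at a lower level, gave the same order of the knockouts. It stood at 0.902, 1.70, 0.722 and 1.65 CPM in Ehmt2 controls and at 3.69, 2.23, 3.13 and 0.701 CPM in knockouts. Knockouts 1 to 3 again lay above every control, and knockout 4 lay below every control. The log2 fold change was 0.83 (SE 0.54, adjusted p = 0.592, edgeR). Leaving out 1 epiblast moved it between 0.51 (without control 3) and 1.43 (without control 4 or knockout 4). Where the groups overlapped, in the Ezh2 cross, it was 0.19 (SE 0.69, adjusted p = 0.972). A gene model of uncertain status on the opposite strand, Gm48840, overlaps Mpzl2 and the start of Mpzl3, and whether the counting used strand is not stated.

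Ube4a, the neighbour on the far side of Cd3g, was expressed in every epiblast. It was at 17.3, 15.5, 16.5 and 13.2 CPM in Ehmt2 controls and at 15.7, 12.2, 12.7 and 12.3 CPM in knockouts. Knockout 1 lay within the controls and the other 3 knockouts lay below them. The log2 fold change was −0.24 (SE 0.16, adjusted p = 0.603, edgeR), and its 7 listed transcripts, which share reads, all gave a value below 0 with none called. Loss of Ezh2 gave 0.31 (SE 0.21, adjusted p = 0.830), with knockouts at 18.7, 19.4 and 21.4 CPM against 11.0, 19.5 and 17.6 CPM in controls.

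None of the 4 tested chromosome 9 neighbours was called in the Ehmt2 cross, by edgeR or by DESeq2, where 0.499% of 49872 tested transcripts were called in either direction. That share ran from 0.197% without control 3 to 0.869% without control 4, and it was 0.902% in a fit with 1 transcript per gene. At an unadjusted p under 0.05 there was 1, Mpzl2, where 11.8% of tested transcripts had such a p. In the Ezh2 cross 0 of the same 4 were called by either tool, where 0.0118% of 50855 tested transcripts were called. There 0 had an unadjusted p under 0.05, where 7.02% of tested transcripts had. In the Ehmt2 cross 0 of the 5 neighbours had every knockout above or below every control, where 2.55% and 2.54% of tested transcripts did. In the Ezh2 cross Mpzl2 had every knockout above every control and the untested Cd3g had every knockout below, where 6.44% and 6.68% did.

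The window was then widened to all genes near Cd3e. Of 58 genes annotated within 500 kb of Cd3e, 27 had a listed transcript and 16 were tested in the Ehmt2 cross. Cd3e was picked with this contrast in view, so nothing is read from its call. Of the other 15, 0 were called by edgeR, where 0.499% of tested transcripts were called in either direction. These 15 had log2 fold changes between −0.92 (Fxyd6, a regulator of the sodium pump) and 0.97 (Mpzl2), with a median of 0.07, against a median of −0.01 over all tested transcripts. Their lowest adjusted p was 0.215 (edgeR), and 0 were called by DESeq2. Of these 15, 2 had an unadjusted p under 0.05, where 11.8% of all tested transcripts had. With Ezh2, 15 window genes were tested and 0 were called by either tool. Their median was 0.15, with a range from −1.62 (Scn2b, a sodium channel subunit) to 2.17 (Tmem25, adjusted p = 0.797, edgeR). There 1 had an unadjusted p under 0.05, where 7.02% of all tested transcripts had.

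Nearest on the Ube4a side, Atp5l, a subunit of ATP synthase, gave 0.10 (SE 0.10, adjusted p = 0.759, edgeR) in the Ehmt2 cross. The histone methyltransferase gene Kmt2a, at 143 ± 13.5 CPM (SD, n = 4) in controls and 163 ± 11.4 CPM in knockouts, gave 0.18 (SE 0.10, adjusted p = 0.509, edgeR). Tmem25 gave 0.14 (SE 1.06, adjusted p = 0.978), and Ttc36 did not pass the filter.

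On the Mpzl side, 3 of the 4 nearest protein-coding genes with a listed transcript did not pass the filter. Jaml, which encodes a junctional adhesion protein of leukocytes and starts 69.6 kb from Cd3e, had 2, 0, 2 and 0 counts in Ehmt2 controls 1 to 4 and 3, 30, 60 and 37 counts in knockouts 1 to 4. Knockouts 2 to 4 were well above every control, and knockout 1, at 0.086 CPM, was just above the highest control, at 0.053 CPM. With no filter the fit gave Jaml a log2 fold change of 4.96 with an adjusted p of 0.0529 (edgeR). Its counts of 4, 16 and 1 in controls and 12, 0 and 2 in knockouts of the Ezh2 cross overlapped. Scn4b had 8, 1, 2 and 0 counts in Ehmt2 controls and 0 in all 4 knockouts, and Tmprss4 was at 0 in 7 of the 8 epiblasts of that cross. Scn2b gave −0.69 (SE 0.42, adjusted p = 0.558, edgeR).

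In all, 11 listed genes of the window did not pass the filter in the Ehmt2 cross, and without it their log2 fold changes ran from −4.25 (Scn4b) to 4.96 (Jaml). Dscaml1, a cell adhesion gene 417 kb from Cd3e, had 0, 1, 9 and 0 counts in Ehmt2 controls 1 to 4 and 19, 17, 51 and 12 in knockouts, and gave 3.48 (adjusted p = 0.199, edgeR). In counts all 4 knockouts were above every control, but in CPM knockout 4, at 0.2, lay below control 3, at 0.241. The noncoding gene Gm10684 gave 3.17 (adjusted p = 0.388) and Cd3g gave 2.16 (adjusted p = 0.615), from at most 14 and 10 counts. At such counts the fitted values depend on the prior count and are no bound.

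**Figure D2:**
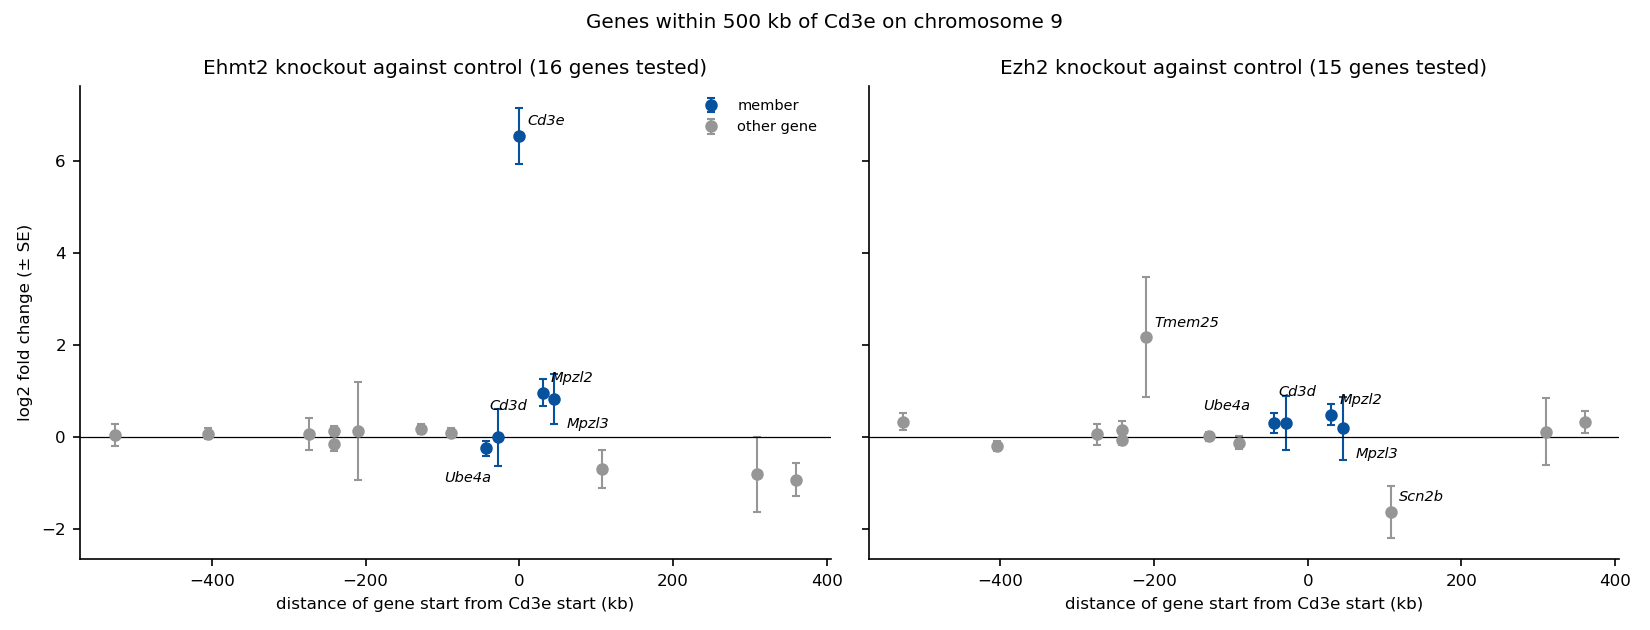
Log2 fold change of knockout against control for each tested gene within 500 kb of Cd3e, with its SE, against the distance in kb of the gene's start from that of Cd3e. The Ehmt2 cross is on the left (16 genes) and the Ezh2 cross on the right (15 genes). Cd3e, at 6.55, stands above the 15 other genes of the left panel, which lie between −0.92 and 0.97.

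Among the members on other chromosomes, Inpp5d had the pattern most like that of Cd3e. It is on chromosome 1 (ENSMUST00000042275, chr1:87620362-87720503, plus strand, 27 exons). Inpp5d stood at 0.902, 0.129, 0 and 0 CPM in Ehmt2 controls 1 to 4 and at 1.26, 3.15, 2.35 and 2.86 CPM in knockouts 1 to 4. The groups did not overlap, but control 1, with 36 counts, came close to knockout 1, with 44. The fitted log2 fold change was 3.47 (SE 1.09), and the ratio of summed counts was 10.4 (exact 95% interval 7.57 to 14.7, counting error only). Without control 1 the log2 fold change was 5.72, and without knockout 4 it was 2.70. All 6 of its tested transcripts, which share reads, lay above 0. Ezh2 controls had 0.364, 0 and 0 CPM and Ezh2 knockouts 0.591, 0.241 and 0.0262 CPM, too low to pass the filter.

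Tnfrsf1a is on chromosome 6 (ENSMUST00000032491, chr6:125349723-125362484, plus strand, 10 exons). It was at 0.802, 1.95, 1.31 and 0.619 CPM in Ehmt2 controls and at 6.95, 4.11, 3.86 and 2.82 CPM in knockouts. The groups did not overlap, and the log2 fold change was 1.95 (SE 0.37). Knockout 1 was the highest and knockout 4 the lowest. For the Ezh2 epiblasts it was at 2.21, 1.97 and 0.595 CPM in controls and at 3.70, 5.18 and 1.05 CPM in knockouts, which overlapped (log2 fold change 1.05, SE 0.61, adjusted p = 0.795, edgeR).

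Stat5a is on chromosome 11 (ENSMUST00000004145, chr11:100859351-100885169, plus strand, 20 exons). It had 3, 3, 4 and 2 counts in Ehmt2 controls, or 0.0752, 0.0644, 0.107 and 0.0375 CPM. In knockouts it was at 2.12, 0.434, 0.626 and 1.29 CPM, from 74, 15, 24 and 77 counts. The groups did not overlap, and the log2 fold change was 3.96 (SE 0.76), with a ratio of summed counts of 16.7 (exact 95% interval 9.36 to 33.0, counting error only). The last bases of Stat5a overlap those of Stat3 on the opposite strand. Stat3 had 130 to 205 counts in Ehmt2 controls and 303 to 368 in Ehmt2 knockouts. The part of Stat3 reads in the counts of Stat5a was not tested. Ezh2 epiblasts had Stat5a at 0.392, 0.343 and 0.255 CPM in controls and at 1.34, 0.483 and 0.472 CPM in knockouts. Every one of those knockouts was above every control, and the log2 fold change was 1.2 (SE 0.69, adjusted p = 0.794, edgeR).

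Rasgrp2, on chromosome 19 (ENSMUST00000035716, chr19:6400562-6415216, plus strand, 17 exons), had the lowest log2 fold change of the members in the Ehmt2 cross. It stood at 12.7, 11.1, 9.81 and 17.5 CPM in Ehmt2 controls and at 2.80, 3.56, 5.61 and 11.6 CPM in knockouts. Knockouts 1 to 3 lay below every control, and knockout 4 lay below controls 1 and 4 but above controls 2 and 3. The log2 fold change was −1.25 (SE 0.26), and it was −1.49 without control 4 or without knockout 4. Its 24 listed transcripts, which share reads, lay between −1.92 and −0.82 there. Rasgrp2 in the Ezh2 cross was at 6.75, 7.05 and 8.48 CPM in controls and at 5.69, 7.05 and 6.85 CPM in knockouts, which overlapped (log2 fold change −0.18, SE 0.23, adjusted p = 0.922, edgeR).

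Of the 9 members that passed the filter in the Ehmt2 cross, 3 met the call rule, namely Cd3e, Tnfrsf1a and Stat5a, all 3 upwards, where 0.441% of tested transcripts were called higher and 0.0581% lower. Leaving out any 1 of the 8 epiblasts gave 1 or 2. Since Cd3e and Tnfrsf1a were chosen with that contrast in view, and Stat5a may have been, nothing is read from the count. Cd3e, Inpp5d and Stat5a passed the filter because of their level in the knockouts. In the Ezh2 cross 0 of 7 tested members were called by edgeR or DESeq2, and edgeR called 0% of transcripts higher. At an unadjusted p under 0.05 there were 0 members, where 7.02% of tested transcripts had such a p. Whether that cross entered the choice of Rasgrp2 and Stat5a is not given.

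The difference between the effects in the 2 crosses was tested in 1 fit of all 14 epiblasts, in which 0.0561% of 55248 transcripts were called. None of the 9 members tested was called. For Cd3e the effect in the Ehmt2 cross was larger by 5.29 on the log2 scale (SE 1.42), from 0 to 18 counts in the epiblasts of the Ezh2 cross. The adjusted p values of the 4 neighbours tested ran from 0.604 (Ube4a) to 0.955 (Cd3d). Of these 4 neighbours 0 had an unadjusted p under 0.05, where 8.33% of all tested transcripts had. For the other members the difference holds the Ehmt2 effect, so it is described without a p-value. The SEs of the 4 neighbours in this test ran up to 0.91, for Mpzl3.

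Per kilobase of transcript, the levels of the 10 genes ran in a different order in the 2 groups of the Ehmt2 cross. In controls Rasgrp2 was highest at 5.75 ± 1.51 CPM per kb (SD, n = 4), followed by Ube4a at 2.59 ± 0.296 and Mpzl2 at 2.38 ± 0.505, and these last 2 did not differ beyond their spread. Tnfrsf1a (0.543 ± 0.277), Mpzl3 (0.363 ± 0.147) and Cd3d (0.212 ± 0.0586) came next. Cd3e (0.0612 ± 0.0817), Inpp5d (0.0528 ± 0.0889), Cd3g (0.0258 ± 0.0187) and Stat5a (0.0183 ± 0.00739) closed the order, within each other's spread. In knockouts Cd3e, at 5.33 ± 1.99 CPM per kb, and Mpzl2, at 5.10 ± 3.13, stood at the top and were not separated by their spread. Rasgrp2 (2.66 ± 1.80), Ube4a (2.19 ± 0.272) and Tnfrsf1a (2.06 ± 0.820) followed.

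The other genes of T cell receptor signalling were read beside the CD3 genes. Of a list of 19, 16 had a listed transcript and 8 were tested in the Ehmt2 cross, of which 1 lay above 0 and 7 below, with a median log2 fold change of −0.20 against −0.01 over all tested transcripts. From the Ezh2 cross 10 were tested, 2 above 0 and 8 below, with a median of −0.18 against 0.01. None was called in either cross by edgeR or DESeq2, and 2 and 1 of them had an unadjusted p under 0.05. Over all tested transcripts 11.8% had such a p in the Ehmt2 cross and 7.02% in the Ezh2 cross. The adaptor genes Lcp2 and Grap2 and the phosphatase gene Ptprc, which encodes CD45, had at most 14 counts in any epiblast. The constant region genes of the receptor chains, Trac, Trbc1 and Trbc2, were not listed.

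Among the detected genes of that list, Plcg1, a phospholipase used in most tissues, gave 0.37 (SE 0.16, adjusted p = 0.404, edgeR). Nck1 gave −0.33 (SE 0.28, adjusted p = 0.694) and Csk −0.04 (SE 0.19, adjusted p = 0.959). Lck, the kinase that phosphorylates CD3 chains, was at 1.22 to 4.44 CPM in the Ehmt2 cross and gave −0.56 (SE 0.39, adjusted p = 0.625). Cd247, which encodes the CD3 zeta chain, appeared at 18.3 to 39.9 CPM there and gave −0.07 (SE 0.19, adjusted p = 0.922). The end of its annotated span overlaps Pou2f1, a broadly expressed gene on the opposite strand. The 6 listed Cd247 transcripts that reach into Pou2f1 had 13 to 1770 counts a library, and the 2 that end before it had 0 to 30, so reads of these genes cannot be told apart without strand.

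**Figure D3:**
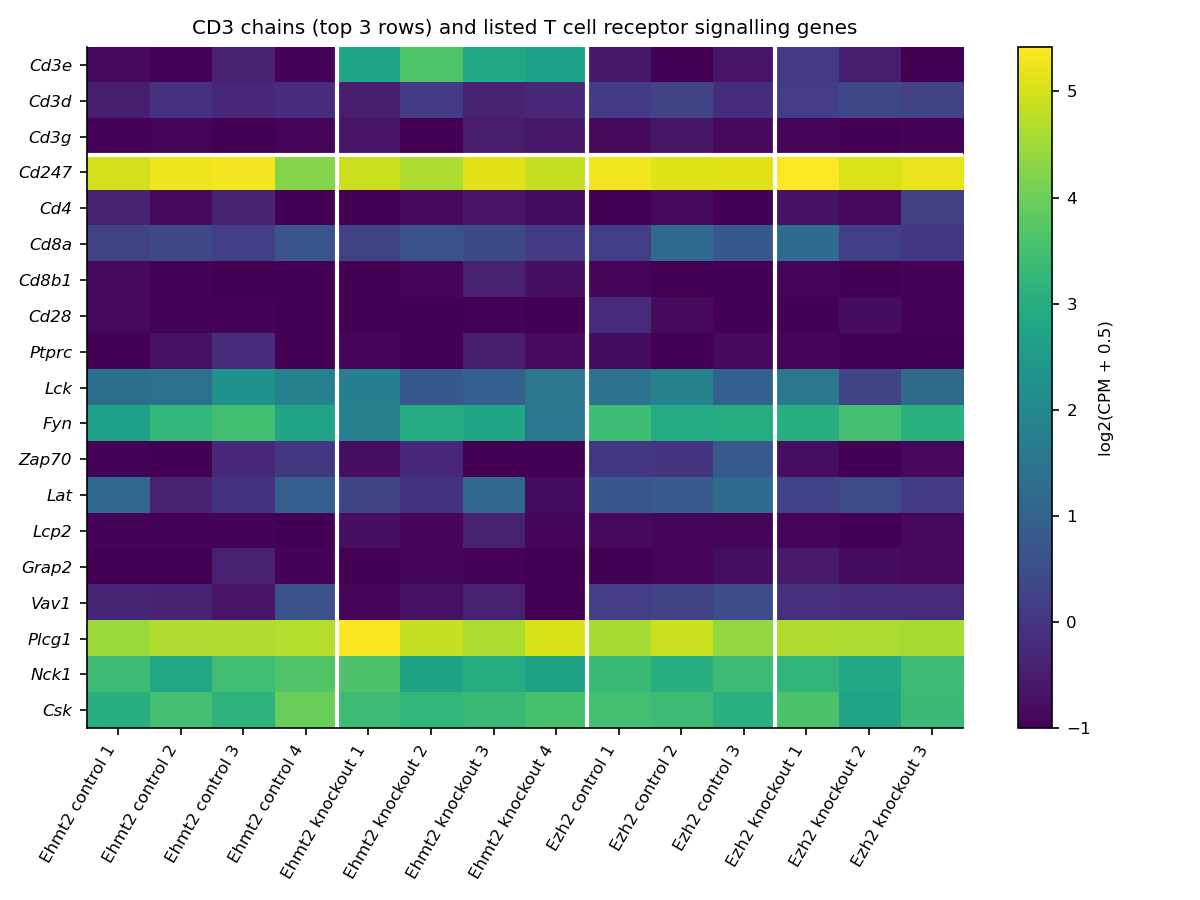
Heat map of log2(CPM + 0.5) for the 3 CD3 genes (top) and the 16 listed genes of T cell receptor signalling in each of the 14 epiblasts, with white lines between groups. Cd3e is bright in the 4 Ehmt2 knockouts, at 5.85 to 12.1 CPM, while Cd3d stays between 0.200 and 0.804 CPM and Cd3g has at most 10 counts.

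The partners of the other members were likewise read from lists, and 0 genes of any of the 4 lists were called in either cross by edgeR or DESeq2. Of 11 genes of RasGRP and Ras activation, all tested, 6 lay above 0 and 5 below in the Ehmt2 cross, with a median of 0.09. Among those at the highest levels were Nras (−0.12, SE 0.09), Rap1b (0.40, SE 0.15) and Rap1a (−0.06, SE 0.19), the last 2 being targets of RASGRP2. Of 13 genes of inositol phosphatases and PI3 kinase, 11 were tested, 6 above and 5 below 0, with a median of 0.30. Inppl1, the widely expressed relative of Inpp5d, gave −0.43 (SE 0.13, adjusted p = 0.218, edgeR).

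Of 19 genes of TNF receptor signalling, 17 were tested, 6 above and 11 below 0, with a median of −0.08. Tab2 (−0.01, SE 0.10), Map3k7 (0.06, SE 0.13), Ikbkg (−0.14, SE 0.15) and Birc2 (−0.06, SE 0.23) had the highest levels. The ligand gene Tnf had 0 to 2 counts. Of 18 JAK-STAT genes, 16 were tested, 11 above and 5 below 0, with a median of 0.10. Stat3 gave 1.1 (SE 0.22, adjusted p = 0.0535, edgeR), and Lifr, a receptor of the LIF cytokine, gave −1.06 (SE 0.22, adjusted p = 0.0598). Socs2, a target gene of STAT5 in other tissues, gave 0.03 (SE 0.12), and Stat5b, the close relative of Stat5a, gave 0.63 (SE 0.71). Of the 55 genes of these 4 lists that were tested in each cross, 14 had an unadjusted p under 0.05 in the Ehmt2 cross, where 11.8% of all tested transcripts had, and 4 had in the Ezh2 cross, where 7.02% had. The Ezh2 medians of the 4 lists, in the same order, were −0.08, 0.08, 0.09 and 0.33.

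**Figure D4:**
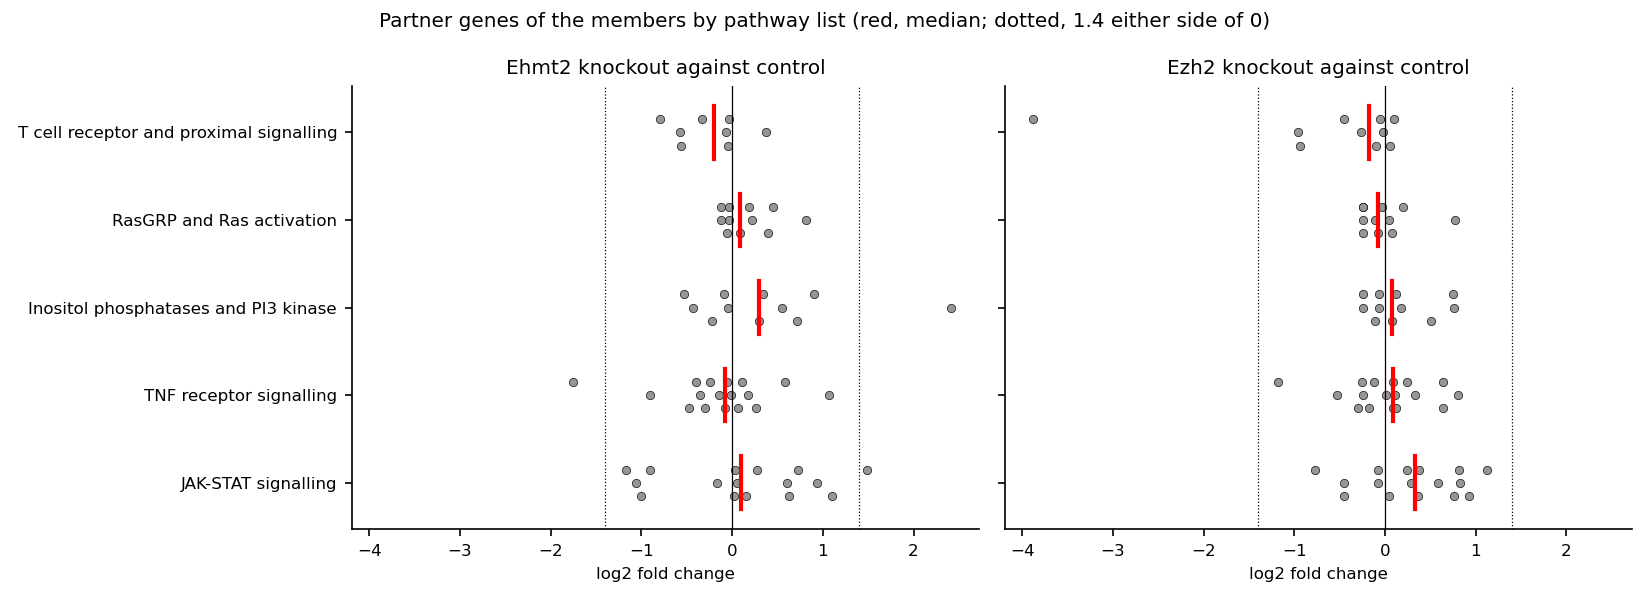
Log2 fold change of each tested gene of the 5 pathway lists in the Ehmt2 cross (left) and the Ezh2 cross (right), with 1 point per gene, the list median in red and dotted lines at 1.4 either side of 0. In the Ehmt2 cross the list medians lie between −0.20 and 0.30, and no gene was called.

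Markers of other cells were read in the same libraries. Of 13 T cell markers, 10 were listed and 4 were tested, with 0 called in either cross by edgeR or DESeq2 and 0 at an unadjusted p under 0.05, and their summed level was 6.84 to 11.1 CPM in Ehmt2 controls and 6.05 to 18.0 CPM in Ehmt2 knockouts. Of 15 markers of blood cells and macrophages, 13 were listed, with summed levels of 10.9 to 12.1 CPM and 8.30 to 13.3 CPM in these groups, 0 called by either tool in either cross, and 1 at an unadjusted p under 0.05 in the Ehmt2 cross. Within these lists the levels were uneven. In the Ehmt2 knockouts, where Cd3e had 225 to 419 counts, Thy1 had 81 to 323, Cd6 22 to 182, Lck 42 to 146 and Cd8a 24 to 36 counts. In the Ehmt2 controls, where Cd3e had 1 to 10 counts, Thy1 had 120 to 297, Cd6 29 to 65, Lck 84 to 166 and Cd8a 24 to 58 counts. Cd7 had 0, 4, 217 and 0 counts in knockouts 1 to 4 and at most 5 in every control, so its high value rests on 1 epiblast. Knockout 3 also had the highest summed level of T cell markers, at 18.0 CPM. Of the blood and macrophage markers, Csf1r had 94 to 291, Cd68 40 to 166, Coro1a 39 to 130 and Alas2 22 to 67 counts in the same knockouts. Their counts in the Ehmt2 controls were 52 to 190 for Csf1r, 79 to 186 for Cd68, 139 to 217 for Coro1a and 43 to 101 for Alas2. Ptprc, Spi1 and Il7r had at most 20 counts in any epiblast. The part of such cells in the level of Cd3e was not tested. Epiblast markers were abundant in every library. Their summed level was 2928 to 3322 CPM in Ehmt2 controls and 1826 to 2694 CPM in Ehmt2 knockouts, with 9 of 10 below 0 and a median log2 fold change of −0.24. In that cross 0 of the 10 were called by edgeR or DESeq2 and 5 had an unadjusted p under 0.05, and in the other 0 and 2. Over all tested transcripts 11.8% had an unadjusted p under 0.05 in the Ehmt2 cross and 7.02% in the Ezh2 cross. Of 10 visceral endoderm markers 8 were tested in the Ehmt2 cross and 9 in the Ezh2 cross, with 0 called by either tool and 0 at an unadjusted p under 0.05. Their summed level was 0.732 to 23.9 CPM in Ehmt2 controls and 1.09 to 33.4 CPM in Ehmt2 knockouts. Within the Ezh2 cross it was 394.5 CPM in control 2 and 875 CPM in knockout 1, against 4.93 to 13.7 CPM in the other epiblasts. The part of visceral endoderm in the levels of the members was not tested.

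Some markers of extraembryonic ectoderm, the tissue that adjoins the epiblast, rose in Ehmt2 knockouts. Of 10, 5 were called higher (Elf5, Esrrb, Tfap2c, Bmp4 and Sfmbt2), where 0.441% of tested transcripts were, and DESeq2 called 6, where it called 1.48% in either direction. In all 9 of 10 lay above 0, with a median log2 fold change of 3.50, and Eomes gave −0.13. After loss of Ezh2, 8 of 8 tested lay above 0, with a median of 2.02, 0 called by edgeR and 2 called by DESeq2, which called 0.35% of transcripts there. Of these 8, 5 had an unadjusted p under 0.05, where 7.02% of all tested transcripts had. As the mean log2 level of the 10 markers, Ehmt2 controls stood at 0.09 to 1.21. Knockouts 1 to 4 stood at 4.68, 3.20, 3.38 and 0.47. The mean of knockout 4 thus lay within the controls, but above control 4, at 0.09. In knockout 4, 4 of the 10 markers were at 0, while others were raised. Esrrb had 67 counts there and Bmp4 had 262, against at most 25 and 118 in any control. Sfmbt2 had 361 counts against 10 in control 4, and Gata3 had 23 against 15. Tfap2c, Ascl2 and Eomes had fewer counts in knockout 4 than in control 4.

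The members differed in how they compared with those markers. Mpzl2, Mpzl3 and Tnfrsf1a were highest in knockout 1, where the markers were highest, and lowest among the knockouts in knockout 4, where they were lowest. In knockout 4 Mpzl2 was at 5.88 CPM against 5.83 CPM in control 4, and Tnfrsf1a was at 2.82 CPM against 0.619 CPM. Cd3e was at 5.85 CPM in knockout 4 against 0.0188 CPM in control 4. Inpp5d (2.86 CPM against 0) and Stat5a (1.29 against 0.0375 CPM) were also above control 4 there. Stat5a was nonetheless highest in knockout 1, at 2.12 CPM. Rasgrp2 had the reverse order at the ends, lowest in knockout 1 (2.80 CPM) and highest among the knockouts in knockout 4 (11.6 CPM). The part of extraembryonic ectoderm in the levels of these members was not tested.

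**Figure D5:**
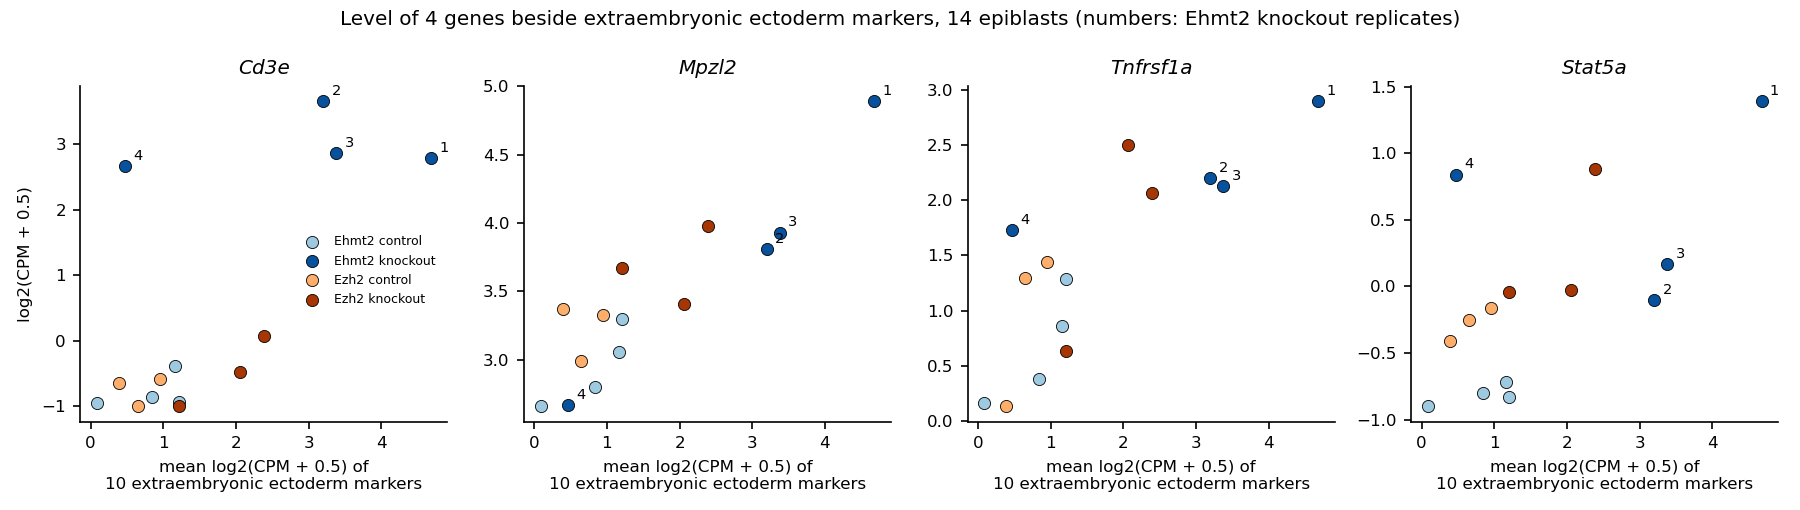
Level of Cd3e, Mpzl2, Tnfrsf1a and Stat5a, as log2(CPM + 0.5), against the mean log2(CPM + 0.5) of 10 extraembryonic ectoderm markers in the 14 epiblasts, with the Ehmt2 knockouts numbered by replicate. Cd3e is high in all 4 Ehmt2 knockouts, including knockout 4, whose markers average 0.47, while Mpzl2 is lower in that knockout than in the other 3.

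Over the 14 epiblasts and 14409 genes, the genes whose log2 level correlated most with that of Cd3e were Nxf3 (Pearson r = 0.987), Pdha2 (0.983), Magea10 (0.982), Xlr5c (0.973) and Magea8 (0.972). Nxf3, Magea10, Xlr5c and Magea8 are on the X chromosome and Pdha2 is on chromosome 3. Nxf3 stood at 0 to 0.279 CPM in Ehmt2 controls, 8.74 to 15.8 CPM in Ehmt2 knockouts and 0 to 0.504 CPM in the Ezh2 cross. Of the members, Inpp5d (0.905, rank 26) came closest, then Tnfrsf1a (0.667) and Stat5a (0.624). The neighbours gave 0.491 for Mpzl2, 0.441 for Mpzl3, −0.362 for Cd3d and −0.539 for Ube4a, and Rasgrp2 gave −0.591. These coefficients describe 14 points that fall into separate groups and are dominated by the 4 Ehmt2 knockouts.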

How the data were processed

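RNA-seq of single E6.25 epiblasts was used. According to the methods of the study, the authors amplified RNA of each epiblast, trimmed the reads, aligned them with TopHat2 to GRCm38/mm10 and counted them per Ensembl transcript with HTSeq. Their versions are not given in the sources used here, nor is the use of strand. The deposited values are raw counts per transcript, 1 file per epiblast, and a transcript absent from a file was taken as 0. A row of unaligned reads in both replicate 4 files of the Ehmt2 cross (12.6% and 13.3% of the file's sum) was left out. Of 72515 listed transcripts 70021 (96.6%) were matched to GENCODE mouse release 21, and a gene was read from its transcript with the highest mean count. Transcripts of 1 gene share reads.

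Each cross was fitted with the edgeR quasi-likelihood test (edgeR 4.0.16, R 4.3.3) with TMM scaling, filterByExpr by genotype and Benjamini-Hochberg adjustment over all tested transcripts, with a comparison set term (replicates 1 to 3, replicate 4) in the Ehmt2 cross. SEs were taken from the test statistic, as |log2 fold change| over √F. Log2 levels are log2(CPM + 0.5). The difference between crosses was fitted on all 14 epiblasts. DESeq2 1.42.0, RLE size factors, no filter, 1 transcript per gene, a replicate block, no comparison set term, replicates 1 to 3 only, no fold threshold, the transcript highest in controls and leaving out each epiblast were the alternatives. Depth, in total counts (30161171 to 68464895 counts a library) leaves genes under about 3 counts, 0.0501 to 0.0933 CPM, unresolved, and intervals and floors cover counting error only. The test was tried on simulated counts: with 13749 transcripts of the Ehmt2 cross, a log2 change of 3 was called for 86% of transcripts when upwards and for 77% when downwards. With 14010 of the Ezh2 cross the shares were 90% and 68%. In each of these runs 10 unchanged transcripts were called. With no change simulated, 0 were called in the Ehmt2 cross and 4 in the Ezh2 cross. The simulation used 1 transcript per gene and did not set replicate 4 apart, unlike the data.

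The members, gene lists and tests were chosen with earlier results of these data known. Named genes are the 10 members, Ehmt2 and Ezh2, the 4 nearest listed protein-coding genes either side and the ends of the range in the window, called genes of each list and up to 4 others of highest level, and the 5 most like Cd3e. Some listed genes were left out of the lists and their counts and are not reported here. Jaml, Dscaml1 and Gm10684 counts, Cd247 transcripts and the low-count, T cell and blood marker, Eomes, Stat3, Lifr, Socs2, Stat5b, Inppl1, Lck and Tnf values were picked out after their values were seen. Columns of unused samples numbered 0, and ChIP-seq and methylation samples of the series were not analysed here.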

Additional observations from a re-analysis of the deposited data

Results flagged for a closer look

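Levels in the groups of 4 epiblasts of the Ehmt2 cross were examined for a sample far from the other 3, in 20 groups of 10 genes. Chance alone sets some groups apart, at a rate that was not worked out for these values. Cd3e in control 3, at 0.267 CPM from 10 counts, lay far above the other controls, at 0.0188 to 0.0501 CPM. Cd3e in knockout 2, at 12.1 CPM, lay above the other knockouts, at 5.85 to 6.79 CPM. Ube4a in knockout 1, at 15.7 CPM, lay above the others, at 12.2 to 12.7 CPM. Inpp5d in control 1, at 0.902 CPM, lay above the other controls, at 0 to 0.129 CPM. No member was called for a difference between the crosses, which does not show that the effects were equal. For Cd3e the log2 difference was 5.29 (SE 1.42), from 0 to 18 counts in the Ezh2 cross. Nothing is read from that result for members picked with the Ehmt2 contrast.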

How the results depend on the processing

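The log2 fold change of Cd3e in the Ehmt2 cross was 6.26 to 6.67 under the alternatives and 6.18 to 7.88 when leaving out 1 epiblast at a time. The number of members called there was 3, and nothing is read from it because some members were chosen with that contrast. It was 1 without the comparison set term, 2 with replicates 1 to 3 only (Cd3e and, lower, Rasgrp2 at −1.49), and 1 to 2 when leaving out each epiblast. When leaving out each epiblast that count never held Tnfrsf1a (1.73 to 2.22) or Stat5a (3.31 to 4.28), and it held Rasgrp2 without control 4 or without knockout 4 (−1.49). Replicate numbers did not pair the epiblasts: same-number correlations ran from 0.031 to 0.300 in the Ehmt2 cross and from −0.097 to 0.136 in the Ezh2 cross, and not every epiblast correlated best with its own number. With the replicate block 1 member, Cd3e, was called in the Ehmt2 cross and 0 in the Ezh2 cross. The value of Cd3d in the Ehmt2 cross changed sign around 0, with 0.00 under RLE size factors and DESeq2, 0.05 with replicates 1 to 3, and −0.42 to 0.18 when leaving out each epiblast. Mpzl3 in the Ezh2 cross ran from −0.25 to 1.13 when leaving out each epiblast. The causes were not tested. Counts of 0 members called in the Ezh2 cross and of 0 members differing between the crosses did not change under their alternatives. Those of the difference were RLE factors and leaving out each epiblast, chosen after seeing the data. With Cd3e itself left aside, the count of 0 genes called near Cd3e did not change in either cross. Over all transcripts, 220 higher and 29 lower calls in the Ehmt2 cross became 544 and 192 with DESeq2, 99 and 6 with the block, 51 and 1 without the comparison set term, 395 and 65 with no filter, 391 and 45 with replicates 1 to 3, 399 and 48 without control 4 and 94 and 7 without control 3, so the 0.441% called higher ran from 0.183% to 0.775% when leaving out each epiblast. The 0 and 6 of the Ezh2 cross became 153 and 25 with DESeq2, 20 and 8 with no filter, 21 and 6 without control 2, and 0 and 0 without any 1 knockout. With 1 transcript per gene, 0.815% were called higher in the Ehmt2 cross and 14.4% had an unadjusted p under 0.05. In the Ezh2 cross these shares were 0% and 7.99%. Depth limits Cd3g, Jaml, and Cd3e and Inpp5d in the Ezh2 cross, which had too few counts for the filter.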
